A study of Mus musculus with 2 samples.

Results

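The integrin and laminin subunits are the 36 genes listed here for the cell surface receptors that hold cells to their matrix and for the laminin chains that many of these receptors bind. They comprise 18 integrin alpha chains, 8 integrin beta chains and 10 laminin chains. Membership was set by gene symbol, a rule that itself uses no measured value, and all 36 were found among the 43346 genes of the tables. Levels are given as TPM, the transcripts of a gene scaled to a fixed total after correction for transcript length, which lets chains be set side by side. The tissue was the sigmoid colon, the part of the large intestine that leads into the rectum, of 1 female C57BL/6J mouse aged 10 weeks. Polyadenylated RNA was sequenced in 2 technical libraries of that animal, named here by their technical replicate numbers. Library 2 was performed in 2015, after library 1. There was 1 group with no treatment or altered allele, so the libraries differ by label only as technical replicates and no value covers variation between mice.

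An integrin is a pair of an alpha and a beta chain that spans the membrane, and the pairing sets which ligand is bound. A laminin is a trimer of an alpha, a beta and a gamma chain, and laminin trimers form the sheet of the basement membrane on which the colon epithelium, smooth muscle, nerves and vessels rest. In epithelium the chains Itga6 and Itgb4 form the receptor of the hemidesmosome, while the chain Itgb1 pairs with many alpha chains in nearly all cells.

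The libraries stood apart from each other before any member was considered. Library 2 held 20681574 expected counts and library 1 held 25843064. Genes of the mitochondrial chromosome held 12.6% of the TPM in library 2 and 44.2% in library 1. Nuclear protein-coding genes took 75.3% of the TPM in library 2 and 31.3% in library 1. TPM is a share of a fixed total, and the median log2 TPM ratio of library 2 over library 1 was 1.18 over the 15711 genes tested, a shift that members share with genes at large. The epithelium markers summed to 8222 TPM in library 2 and 1006 TPM in library 1, and the smooth muscle markers to 3838 TPM in library 2 and 347 TPM in library 1. Defining genes of both were present in each library, with Epcam at 955 TPM in library 2 and 451 TPM in library 1, and the enteric muscle actin Actg2 at 1207 TPM in library 2 and 84.9 TPM in library 1. The labelled tissue thus had its epithelium and muscle markers in both libraries. The fibroblast markers summed to 430 TPM in library 2 and 357 TPM in library 1, and the leukocyte markers to 213 TPM in library 2 and 56.9 TPM in library 1. The endothelium markers summed to 92.8 TPM in library 2 and 16.0 TPM in library 1, and the platelet markers to 40.03 TPM in library 2 and 10.1 TPM in library 1. The glia and nerve markers summed to 14.3 TPM in library 2 and 4.46 TPM in library 1. The skeletal muscle markers summed to 31.9 TPM in library 2 and 0.51 TPM in library 1. Of these, Ckm had 15.65 TPM in library 2 and 0.03 TPM in library 1. Acta1 had 15.26 TPM in library 2 and 0 in library 1, and Myh4 was listed at 0 in both.

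Taken over all 36 genes, the level was 790 TPM in library 2 and 443.0 TPM in library 1, a mean of 617 ± 246 TPM (SD, n = 2 libraries). The 26 integrin chains held 555 TPM in library 2 and 384 TPM in library 1. The 10 laminin chains held 235 TPM in library 2 and 58.6 TPM in library 1. Rescaled over nuclear protein-coding genes only, the same 36 genes came to 1049 TPM in library 2 and 1414 TPM in library 1. On that scale the integrin chains came to 737 TPM in library 2 and 1227 TPM in library 1, and the laminin chains to 312 TPM in library 2 and 187 TPM in library 1. The order of the libraries therefore turned with the scaling for the integrins and not for the laminins, and shares within a chain class, which do not depend on it, are given beside the levels of the leading chains. No member was below 0.1 TPM in both libraries, and 7 were below it in library 1. At 10 TPM or more there were 18 members in library 2 and 9 in library 1, of which 8 were the same genes. The same counts were not taken over all genes, whose median log2 TPM ratio of library 2 over library 1 was 1.18. They therefore do not set the members apart from genes at large.

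**Figure D1:**
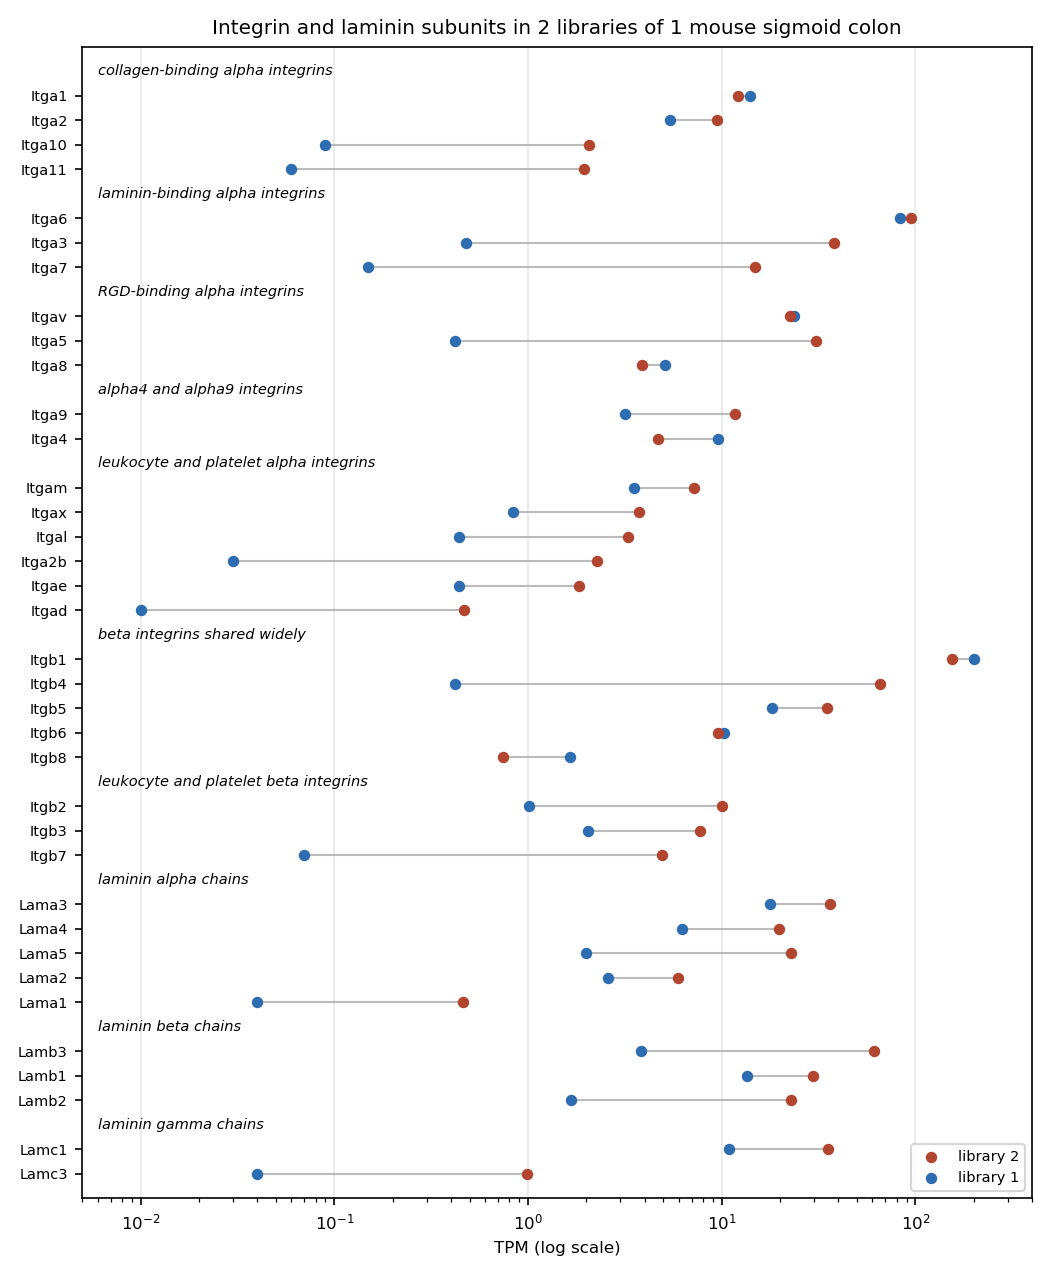
TPM on a log scale for each of the 36 subunits, grouped by role, with a point for library 2 and a point for library 1 joined by a line. Itgb1 and Itga6 sit at the right in both libraries, whereas Itgb4, Itga3, Itga5 and Itga7 lie between 14.9 and 65.8 TPM in library 2 and at or below 0.48 TPM in library 1.

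Among the beta chains, Itgb1 (chr8:128685654-128733200, plus strand, GRCm38), the common partner of collagen, laminin and fibronectin receptors, had the highest level of all 36 members in both libraries. It stood at 155 TPM in library 2 and 200.4 TPM in library 1, which was 53.8% of the beta-chain TPM in library 2 and 85.7% in library 1. Itgb4 (chr11:115974709-116008412, plus strand), the long-tailed beta chain of hemidesmosomes that pairs only with Itga6, was the widest contrast. It had 65.8 TPM in library 2 and 0.42 TPM in library 1, from 4705 counts in library 2 and 47 in library 1, and its share of the beta-chain TPM was 22.8% in library 2 and 0.180% in library 1. It ranked 3 of 36 by TPM in library 2 and 27 in library 1.

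Itgb5, a partner of Itgav that binds vitronectin, had 34.8 TPM in library 2 and 18.1 TPM in library 1. Itgb6, the epithelial partner of Itgav that activates latent TGF-beta, had 9.59 TPM in library 2 and 10.3 TPM in library 1, and Itgb8, which also pairs with Itgav and activates latent TGF-beta, had 0.74 TPM in library 2 and 1.64 TPM in library 1. Itgb2, the beta chain of leukocytes, had 10.0 TPM in library 2 and 1.01 TPM in library 1. The levels of Itgb6 were thus close on the deposited TPM, but over nuclear protein-coding genes only it had 12.7 TPM in library 2 and 32.8 TPM in library 1. Itgb3, the beta chain of the platelet fibrinogen receptor and also a partner of Itgav, had 7.70 TPM in library 2 and 2.05 TPM in library 1. Itgb7, the beta chain of gut-homing lymphocytes, had 4.94 TPM in library 2 and 0.07 TPM in library 1.

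Among the alpha chains, Itga6 (chr2:71745616-71858416, plus strand), the laminin receptor chain that pairs with Itgb1 or Itgb4, led in both libraries. It stood at 95.3 TPM in library 2 and 83.1 TPM in library 1, or 35.8% of the alpha-chain TPM in library 2 and 55.2% in library 1. Itga3 (chr11:95044474-95076801, minus strand), another epithelial laminin receptor chain, had 38.2 TPM in library 2 and 0.48 TPM in library 1. Itga7 (chr10:128933818-128958282, plus strand), the laminin receptor chain of muscle, had 14.9 TPM in library 2 and 0.15 TPM in library 1. The 3 laminin-binding alpha chains together held 148 TPM in library 2 and 83.7 TPM in library 1, and nearly all of the library 1 sum was Itga6.

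The chains that bind the RGD motif of fibronectin, vitronectin and related ligands divided in the same way. Itgav, which pairs with 5 of the listed beta chains, had 22.4 TPM in library 2 and 23.7 TPM in library 1. Itga5 (chr15:103344286-103366763, minus strand), the alpha chain of the main fibronectin receptor, had 30.7 TPM in library 2 and 0.42 TPM in library 1. Itga8, a receptor chain for nephronectin found on smooth muscle, had 3.88 TPM in library 2 and 5.12 TPM in library 1. Itga5 was therefore the most abundant of these 3 in library 2 and the least abundant in library 1.

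Of the collagen receptors, Itga1, which prefers the collagen of basement membranes, had 12.1 TPM in library 2 and 13.99 TPM in library 1. Itga2, which prefers fibrillar collagen, had 9.51 TPM in library 2 and 5.39 TPM in library 1. Itga10 and Itga11, collagen receptor chains of cartilage and of fibroblasts, had 2.06 and 1.95 TPM in library 2 and 0.09 and 0.06 TPM in library 1. Itga1 was thus the leading collagen receptor chain of both libraries. Itga9, a receptor chain for tenascin C, had 11.7 TPM in library 2 and 3.17 TPM in library 1. Itga4, which pairs with Itgb1 or Itgb7 and binds VCAM1, MAdCAM1 and fibronectin, had 4.69 TPM in library 2 and 9.53 TPM in library 1. Between these last chains the order of levels was opposite in the libraries.

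The leukocyte and platelet alpha chains were low in both libraries, at 18.8 TPM in sum in library 2 and 5.30 TPM in library 1. Itgam, which forms the complement receptor of macrophages and neutrophils with Itgb2, had 7.16 TPM in library 2 and 3.54 TPM in library 1. Itgax, of dendritic cells and macrophages, and Itgal, of lymphocytes, had 3.75 and 3.29 TPM in library 2 and 0.84 and 0.44 TPM in library 1. Itgae, which pairs with Itgb7 and binds E-cadherin on intraepithelial lymphocytes, had 1.84 TPM in library 2 and 0.44 TPM in library 1. Itga2b, the alpha chain of the platelet fibrinogen receptor, had 2.28 TPM in library 2 and 0.03 TPM in library 1, where it rested on 2 counts. Itgad, a leukocyte chain close to Itgax in sequence, had 0.47 TPM in library 2 and 0.01 TPM in library 1, from 7 counts in library 2 and 1 count in library 1. Itgam and Itgax led this class in both libraries. In bulk tissue, fewer cells of a type and less RNA per cell cannot be told apart.

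Among laminin alpha chains, Lama3, the alpha chain of the laminin that anchors epithelia, led in both libraries with 36.4 TPM in library 2 and 17.8 TPM in library 1. Lama5 (chr2:180176373-180225859, minus strand), the alpha chain of most adult basement membranes, had 22.9 TPM in library 2 and 1.99 TPM in library 1. Lama4, of vessels and muscle, had 19.7 TPM in library 2 and 6.22 TPM in library 1. The share of Lama4 in the laminin alpha TPM was 23.1% in library 2 and 21.7% in library 1, whereas that of Lama5 was 26.8% in library 2 and 6.95% in library 1. Lama2, of muscle and nerve, had 5.94 TPM in library 2 and 2.59 TPM in library 1. Lama1, best known from the early embryo and kidney, had 0.46 TPM in library 2 and 0.04 TPM in library 1.

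The leading beta chain of laminin differed between the libraries. Lamb3 (chr1:193207699-193343878, plus strand), which joins Lama3 in the epithelial laminin, had 61.0 TPM in library 2 and 3.85 TPM in library 1, or 53.7% of the laminin beta TPM in library 2 and 20.3% in library 1. Lamb1, the widespread beta chain, had 29.7 TPM in library 2 and 13.5 TPM in library 1, or 26.2% of the class in library 2 and 71.0% in library 1. Lamb2, the beta chain of muscle and vessel basement membranes, had 22.9 TPM in library 2 and 1.66 TPM in library 1. Of the 2 listed gamma chains, Lamc1, shared by most laminin trimers, had 35.3 TPM in library 2 and 10.9 TPM in library 1, and Lamc3, a chain of few tissues, had 0.99 TPM in library 2 and 0.04 TPM in library 1. Lamc1 made up 97.3% of their sum in library 2 and 99.6% in library 1.

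**Figure D2:**
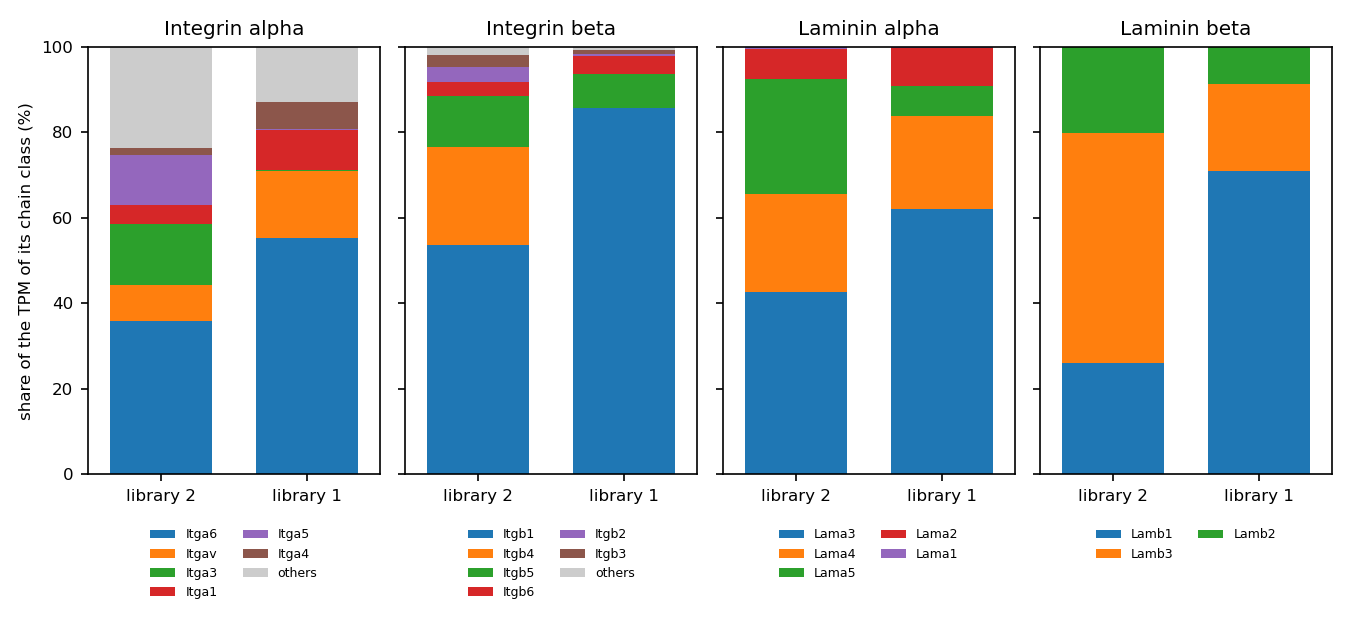
Share in percent of the summed TPM of each chain class taken by its members, with library 2 left of library 1 in each panel and members outside the 6 highest drawn as others. Itga6, Itgb1 and Lama3 lead their classes in both libraries, whereas Lamb3 leads the laminin beta chains in library 2 and Lamb1 in library 1.

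Because both chains of a pair are needed on the cell surface, ratios within pairs are given as descriptions of RNA. Itga6 over Itgb4 was 1.45 in library 2 and 198 in library 1. Lama3 over Lamb3 was 0.596 in library 2 and 4.63 in library 1, and Itgav over Itgb5 was 0.644 in library 2 and 1.31 in library 1. In library 1 both of these rest on Lamb3 and Itgb5 levels that are mostly short transcripts, and with 1 fixed length per gene they come to 14.3 and 5.79 there. The 12 listed alpha chains that pair with Itgb1 summed to 1.59 times the Itgb1 level in library 2 and 0.724 times in library 1. All integrins over all laminin chains came to 2.36 in library 2 and 6.56 in library 1. Each of these 5 ratios therefore differed by more than 1.5 times between libraries of 1 tissue.

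Counts were compared between the libraries to ask which of these differences exceeded counting error. A two-sided exact binomial test was run on all 15711 genes with a mean of at least 10 expected counts, given library sizes scaled by TMM, a trimmed mean of ratios. A gene passed at a Benjamini-Hochberg adjusted p under 0.05 and a difference of at least 2-fold. With 1 library on each side the test has no replicate check and compares these libraries' counts, not conditions. Of the 36 members, 35 entered and Itgad did not. Over all genes tested, 37.0% passed as higher in library 2 and 28.2% as lower, 65.2% in all. Of the members, 16 passed as higher in library 2, 7 as lower and 12 did not pass. The members' median log2 ratio of library 2 over library 1 was 0.98, against 0.12 over all genes tested.

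Itgb4 was the member with the largest ratio, at 73.7-fold higher in library 2 on scaled counts (log2 ratio 6.20 ± 0.21 counting SE; 95% Clopper-Pearson interval 55.8 to 101-fold). The next members were Itga3 at a log2 ratio of 5.55 ± 0.23 from 2418 counts in library 2 and 38 in library 1, Itga7 at 5.40 ± 0.38 from 820 counts in library 2 and 14 in library 1, and Lamb2 at 5.37 ± 0.32 from 1139 in library 2 and 20 in library 1. Lama5, Lamb3, Itga5 and Itgb7 had log2 ratios between 4.90 and 5.16. The lower bounds of the intervals of these 8 genes were all 12.6-fold or more. Itga2b had 68 counts in library 2 and 2 in library 1, a ratio of 20.99 with an interval from 6.73 to 213. Itga11, Lamc3, Itga10, Lama1, Itgb2, Itgb5 and Itgal completed the members that passed as higher, at log2 ratios between 1.85 and 3.75. Lamc3, Itga11, Lama1 and Itgb7 rested on 4 to 8 counts in library 1. Among all members that passed, the largest adjusted p from the exact binomial test was 2.64e-08, for Lama1.

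The 7 members that passed as lower in library 2 were all integrins. Itgb8 had a log2 ratio of -2.31 ± 0.17 and Itga4 of -2.25 ± 0.07. Itgav, Itga8, Itgb1, Itga1 and Itgb6 had log2 ratios between -1.66 and -1.37. Itgb1 had 8103 counts in library 2 and 17498 in library 1, a log2 ratio of -1.54 ± 0.02. Itga6, with 4168 counts in library 2 and 6036 in library 1, lay just under the fold threshold at -0.96 ± 0.03 and did not pass, but with library sizes from DESeq2's size factors it did, at -1.02. No laminin chain passed as lower. Lama3 had 3218 counts in library 2 and 2380 in library 1. Its log2 ratio was 0.01 ± 0.04, with an interval of 0.952 to 1.06-fold. That interval covers counting error at this scaling only, and on TPM with 0.1 added the log2 ratio of Lama3 was 1.03. On scaled counts Lama2, Lama4 and Itgam also had ratios within 0.12 of 0 on the log2 scale. Itga2, Itga9, Itgb3, Lamb1, Itgae, Itgax and Lamc1 lay between -0.35 and 0.98 without passing. Of these 12, Lama3, Lama4, Itgam and Lama2 had adjusted p-values of 0.89, 0.345, 0.269 and 0.21 by the exact binomial test, and the other 8 had adjusted p-values under 0.05 but less than a 2-fold difference.

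Members that passed in opposite directions differed in base composition. GC content, the percentage of G and C bases, was averaged over each gene's transcripts with their TPM as weights. The 10 members at 56% GC or more all passed as higher in library 2, with a median log2 ratio of 5.09, against a median of 4.18 over the 2804 genes tested in that range, of which 95.3% passed as higher. Of the 8 members between 52 and 56% GC, 6 passed as higher, where 73.1% of all genes did, with a median of 2.16 against 1.83 over all genes in the range. None of the 7 members between 48 and 52% GC passed, where 20.2% of all genes passed as higher and 6.26% as lower, and their median was 0.55 against 0.20. Between 44 and 48% GC 3 of 5 members passed as lower, where 41.9% of all genes did, with a median of -1.37 against -0.88. Between 40 and 44% GC 4 of 5 passed as lower, where 90.4% of all genes did, with a median of -1.57 against -1.66. Across the 35 members GC content and log2 ratio had a Pearson r of 0.951 and a Spearman rho of 0.9501, and across the 15664 genes with a GC value they had 0.842 and 0.903. These are descriptions across genes of the same 2 libraries, which share depth and scaling, and genes are not independent replicates. Log2 transcript length had a Pearson r of -0.397 with the ratio across the members.

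**Figure D3:**
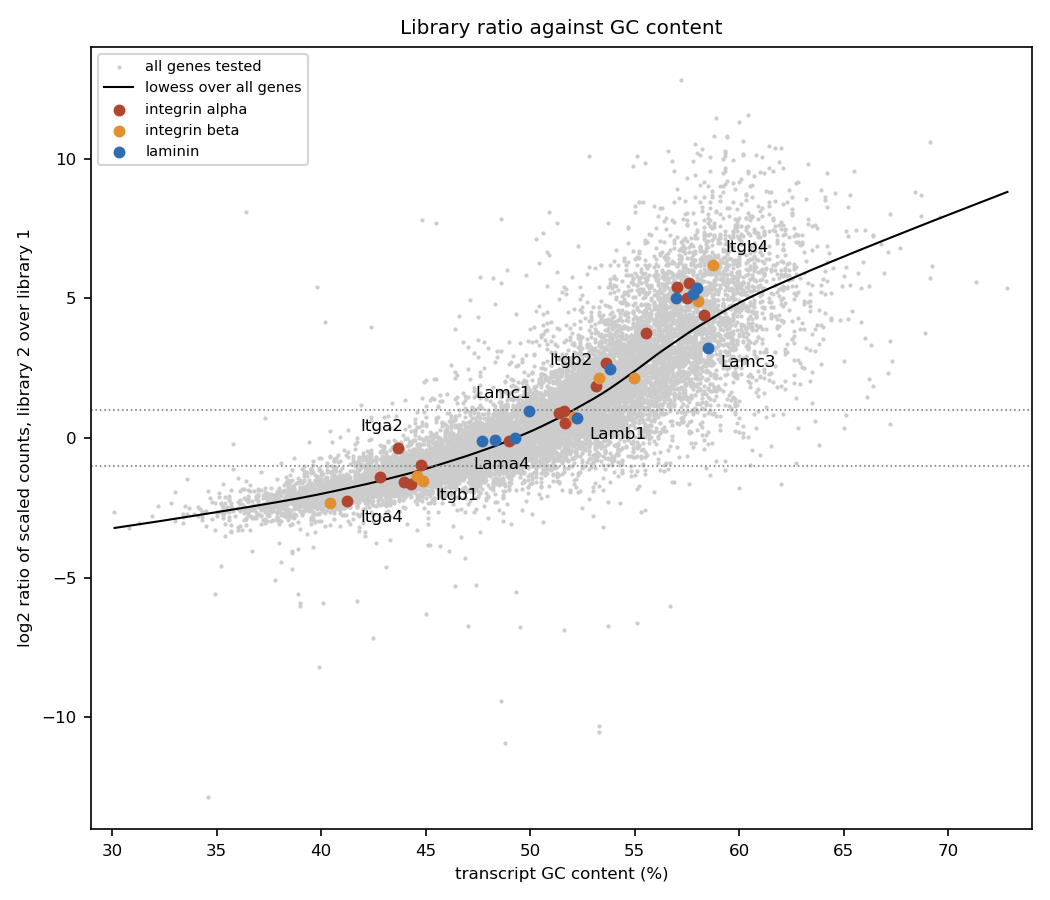
Log2 ratio of scaled counts, library 2 over library 1, against transcript GC content in percent, with grey points for all genes tested, a black lowess line through them and coloured points for the 35 members. Dotted lines mark 2-fold. The members run along the line, from Itgb8 and Itga4 near -2.3 at 40 to 42% GC to Itgb4 at 6.20 near 59% GC.

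The base composition can be read in the coding sequence of chains that pair with each other or replace each other. For each of 6 genes, the 90 bases shown lie in 1 exon of the longest protein-coding transcript and are the first such stretch whose GC content is closest to that of the whole coding sequence. They are from GENCODE M21 on GRCm38, 5′ to 3′, with G and C in capitals.
Itgb4, chr11:115979678-115979767, plus strand: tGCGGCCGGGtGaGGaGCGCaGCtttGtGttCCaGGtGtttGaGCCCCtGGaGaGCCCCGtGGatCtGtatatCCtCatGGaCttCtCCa
Itgb1, chr8:128710258-128710347, plus strand: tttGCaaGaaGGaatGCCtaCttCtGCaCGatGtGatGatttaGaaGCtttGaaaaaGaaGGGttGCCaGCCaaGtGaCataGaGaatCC
Itga3, chr11:95068724-95068813, minus strand: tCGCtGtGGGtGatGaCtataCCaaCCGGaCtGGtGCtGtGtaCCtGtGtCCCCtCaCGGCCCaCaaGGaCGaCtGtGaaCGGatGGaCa
Itga6, chr2:71820001-71820090, plus strand: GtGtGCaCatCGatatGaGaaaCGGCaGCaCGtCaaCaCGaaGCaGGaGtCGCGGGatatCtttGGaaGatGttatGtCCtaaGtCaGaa
Lama5, chr2:180221289-180221378, minus strand: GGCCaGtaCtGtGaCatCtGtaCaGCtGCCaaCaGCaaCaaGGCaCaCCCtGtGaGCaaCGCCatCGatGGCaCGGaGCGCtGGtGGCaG
Lama4, chr10:39026636-39026725, plus strand: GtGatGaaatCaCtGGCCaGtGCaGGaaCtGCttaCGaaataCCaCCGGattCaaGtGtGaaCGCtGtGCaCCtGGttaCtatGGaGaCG
The whole coding sequence held 59.4% G and C in Itgb4 and 42.6% in Itgb1, the beta chains that share Itga6 as a partner. It held 57.7% in Itga3 and 48.1% in Itga6, and 60.2% in Lama5 and 49.4% in Lama4. In each of these 3 pairs the gene with more G and C had the higher log2 ratio of library 2 over library 1. The 6 genes were picked by hand, and the pairs set members of unlike GC content side by side. Their order thus repeats the trend across the members, and the pairs are examples of it, not a further test.

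When the trend of the ratio on GC content over all genes was taken off the expected ratio, 12.4% of all genes tested passed as higher in library 2 and 11.3% as lower. Of the members, 9 then passed as higher and 0 as lower by the same exact binomial test, and their median log2 ratio was 0.23, against -0.01 over all genes. Of the 7 that had passed as lower, 6 still lay below 0 without passing, between -0.45 and -0.19, and Itga1 lay at 0.15. The 9 were Itga7 at 1.91, Itgb4 at 1.90, Itga3 at 1.76, Lamb3 at 1.56, Lamb2 at 1.41, Lama5 at 1.28, Itga5 at 1.28, Itga2 at 1.02 and Itga10 at 1.01. These include the epithelial chains Itgb4, Itga3 and Lamb3, but the epithelial chains Itga6, Lama3 and Itgb6 had 0.19, 0.00 and -0.19 and did not pass. They also include Itga7 and Lamb2 of muscle, whereas Lama2, Lama4 and Itga8, also found there, had 0.35, 0.23 and -0.26 and did not pass. Itga2, which mostly serves epithelium and platelets, did not pass before the trend was removed. With GC content taken from the longest coding transcript, a choice made after the values were seen, Itga3, Itga5, Itga7, Itgb4, Lamb2, Lamb3 and Itga2 again passed as higher, Itga11 did too, Lama5 and Itga10 did not, and Itgb5 passed as lower at -1.20. With the first trend removed, Krt8 and Krt19 of the epithelium markers had log2 ratios of 0.90 and 2.44, and Epcam and Cldn7 of the same list had -1.37 and -1.51. In all, 2 of the 8 epithelium markers then passed as higher and 2 as lower, and 4 of the 7 smooth muscle markers passed as higher and none as lower. The part of these cell types in the ratios of the members was not tested.

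**Figure D4:**
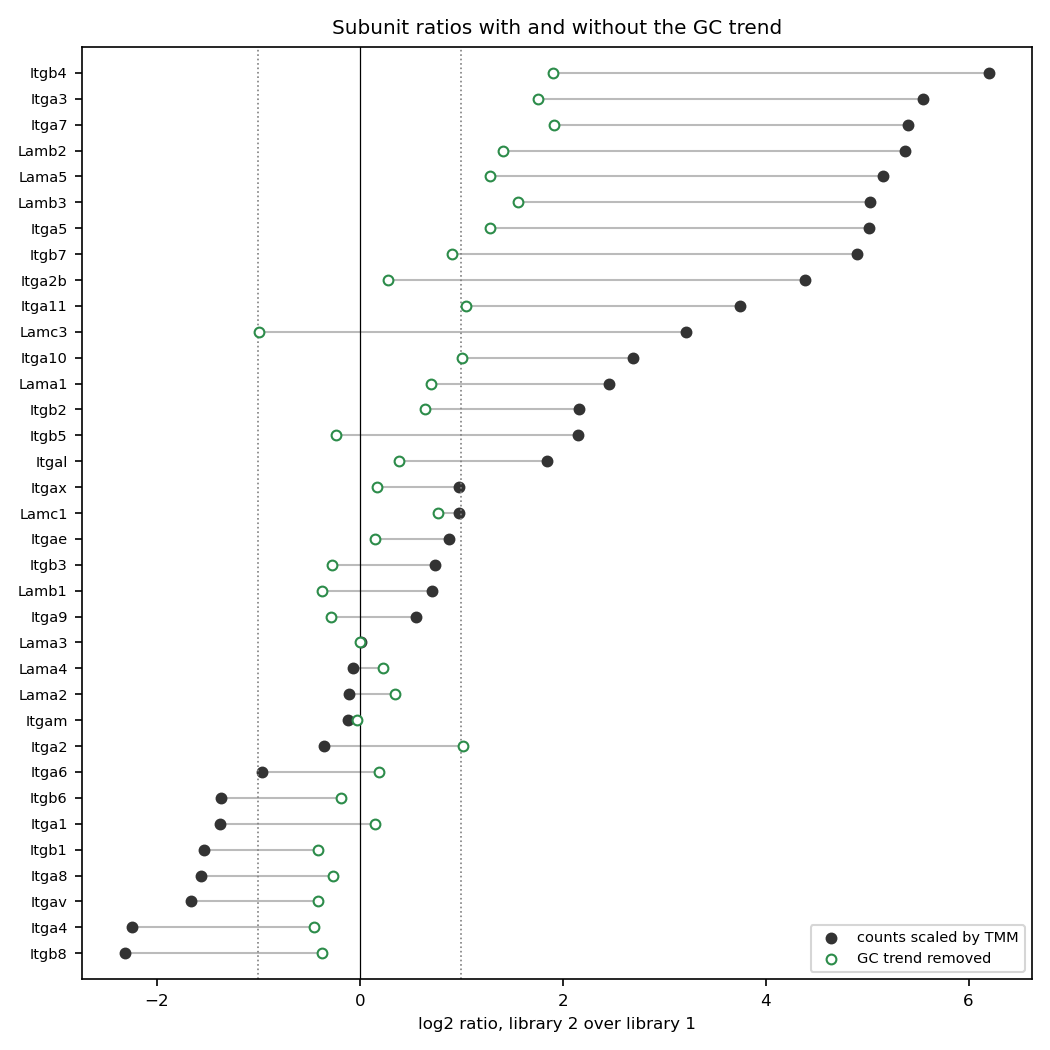
Log2 ratio of library 2 over library 1 for the 35 members tested, ordered from highest to lowest, with filled points for counts scaled by TMM and open points after the GC trend over all genes was taken off. Dotted lines mark 2-fold. The filled points span -2.31 to 6.20 and the open points -0.99 to 1.91.

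The transcript tables show which form of each gene carried the level, and transcript shares were described for the 22 members with a mean of at least 5 TPM. A transcript under 1000 bases, a length chosen after the values were seen, is too short to encode these chains, which are long proteins. Such transcripts held more than 50% of the gene's TPM in 1 of the 22 members in library 2 and in 4 in library 1. Short shares were not computed over other genes, so counts of them cannot be read as a trait of the members. For Itgb5 they held 1.06% of the TPM in library 2 and 95.4% in library 1. Itgb5-203, a processed transcript of 631 bases, had 0.37 TPM in library 2 and 17.3 TPM in library 1, whereas the coding Itgb5-202 of 3090 bases had 33.1 TPM in library 2 and 0.15 TPM in library 1. The level of Itgb5 was thus carried by different forms in the libraries, and its counts, 1442 in library 2 and 241 in library 1, differed by 4.44-fold when scaled.

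The laminin chains with high GC content had the same feature. For Lamb3, short transcripts held 0.0492% of the TPM in library 2 and 79.0% in library 1. The full coding form Lamb3-201 had 60.5 TPM in library 2 and 0.56 TPM in library 1. For Lama5 short transcripts held 62.2% in library 2 and 99.5% in library 1, and the coding Lama5-201 of 11388 bases had 8.64 TPM in library 2 and 0.01 TPM in library 1. Most of the Lama5 TPM above was thus in fragments of the gene model in both libraries. By expected counts, however, Lama5-201 held 1391 of 1462 in library 2 and 4.03 of 30 in library 1. For Lamb2 short transcripts held 39.3% in library 2 and 97.6% in library 1, and the coding Lamb2-201 had 13.9 TPM in library 2 and 0.04 TPM in library 1. In Lama4 the short share was 38.8% in library 2 and 7.56% in library 1. In Itgav it was 39.4% in library 2 and 17.6% in library 1. By expected counts in library 2, Lamb2-201 held 1089 of 1139 for its gene and Lama4-201 held 1007 of 1049. Over the 22 members, 7 had a higher short share in library 2, 7 in library 1, and 6 had no annotated short transcript.

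**Figure D5:**
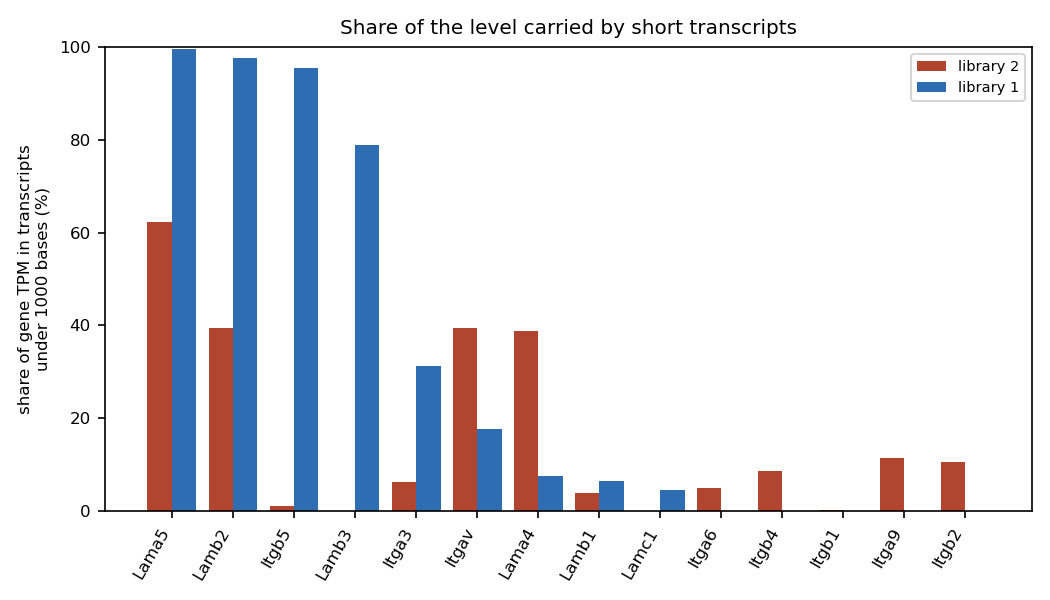
Share in percent of a gene's TPM assigned to transcripts under 1000 bases, with library 2 left of library 1, for members with a mean of at least 5 TPM and a short share above 0. Lama5, Lamb2, Itgb5 and Lamb3 stand above 78% in library 1, and of these Lama5 alone is above 50% in library 2.

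When TPM was recomputed from each gene's counts and the length of its longest transcript, which removes that shift of form and was added after the values were seen, Itgb5 had 48.4 TPM in library 2 and 5.21 TPM in library 1. On that scale Lama5 had 13.3 TPM in library 2 and 0.176 TPM in library 1, and Lamb3 had 72.3 TPM in library 2 and 1.06 TPM in library 1. Itgb1 took 56.3% of the beta-chain level in library 2 and 91.6% in library 1, and Lamb1 took 29.3% of the laminin beta level in library 2 and 89.8% in library 1. The leading member of each chain class in each library was the same gene as on the deposited TPM. The ratios within pairs moved where library 1 held mostly short forms: Lama3 over Lamb3 was 0.437 in library 2 and 14.3 in library 1, and Itgav over Itgb5 was 0.413 in library 2 and 5.79 in library 1.

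Isoforms known to change the chains were read from the same tables. The Lama3 gene makes a short chain, the form of the epithelial anchoring laminin, and a long chain. The shorter coding transcript Lama3-202, of 5551 bases, had 30.6 TPM in library 2 and 17.1 TPM in library 1, which was 84.2% of the gene in library 2 and 96.2% in library 1. The longer Lama3-201, of 10548 bases, had 5.75 TPM in library 2 and 0.67 TPM in library 1. Itgb1 was nearly all 1 coding form, Itgb1-201, at 99.6% in library 2 and 99.9% in library 1. Itga3-201 held 85.4% of Itga3 in library 2 and was listed at 0 in library 1, where the gene rested on 38 counts.

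The Itga6 gene encodes alternative cytoplasmic tails, set by a cassette exon near its 3′ end. That exon is exon 25 of 26 in Itga6-201, at chr2:71853534-71853663 on the plus strand, 130 bases long, of which the first 105 encode the tail before a stop codon. The 105 coding bases are shown in capitals and the stop codon in lower case, since the presence of this stretch separates the forms.
Itga6 cassette exon: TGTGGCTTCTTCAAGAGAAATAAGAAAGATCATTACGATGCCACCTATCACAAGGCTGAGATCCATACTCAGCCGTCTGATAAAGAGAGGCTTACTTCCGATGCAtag
Among coding transcripts that span this place, those with the exon had 20.4 TPM in library 2 and 24.6 TPM in library 1, and the transcript without it, Itga6-202, had 23.2 TPM in library 2 and 7.63 TPM in library 1. Forms with the exon were thus 46.8% of the coding level in library 2 and 76.3% in library 1. A non-coding transcript that also lacks the exon, Itga6-203, held 49.1% of the gene's TPM in library 2 and 60.9% in library 1. With Itga6-203 counted among the transcripts that span this place, forms with the exon were 22.6% in library 2 and 29.7% in library 1. Itga6-203 is 2721 bases long, of which 2563 are its last exon, and it runs 1645 bases past the end of Itga6-202. The coding transcripts of the gene together had 43.6 TPM in library 2 and 32.25 TPM in library 1.

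The partners of these chains were described from lists of related genes, each to be read beside all genes tested. Of all genes, 37.0% passed as higher in library 2 and 28.2% as lower, with a median log2 ratio of 0.12. With the GC trend removed, 12.4% passed as higher and 11.3% as lower, with a median of -0.01. Whether a list departed from these shares was not tested. Of 23 genes of integrin activation and focal adhesion, 12 passed as higher in library 2 and 5 as lower, and the median log2 ratio was 1.56. With the GC trend removed 5 passed as higher and 3 as lower, with a median of -0.10. Rap1b, a small GTPase that activates integrins, had 85.8 TPM in library 2 and 177 TPM in library 1 and passed as lower. Rap1a, its close relative, had 58.2 TPM in library 2 and 133 TPM in library 1 and also passed as lower, as did the adaptor Lims1 with 42.2 TPM in library 2 and 68.96 TPM in library 1. Parva, an adaptor of the kinase Ilk, had 77.0 TPM in library 2 and 32.6 TPM in library 1 and did not pass on scaled counts. Pxn, the focal adhesion adaptor paxillin, named after its values were seen, had 102 TPM in library 2 and 3.98 TPM in library 1 and passed as higher, but with the GC trend removed it passed as lower at -1.12. Bcar1, a docking protein of focal adhesions, had the largest ratio of the list, with 29.9 TPM in library 2 and 0.08 TPM in library 1.

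Of the hemidesmosome partners of Itgb4, 3 of 4 were tested, of which 2 passed as higher and none as lower, and none passed with the GC trend removed. Plec, the plectin that links Itgb4 to keratin filaments, had 64.6 TPM in library 2 and 0.83 TPM in library 1. Cd151, a tetraspanin bound to laminin receptors, had 118 TPM in library 2 and 8.97 TPM in library 1, and Dst, the linker dystonin, had 71.9 TPM in library 2 and 22.2 TPM in library 1. Col17a1, a defining collagen of the full hemidesmosome of skin, had 0.11 TPM in library 2 and 0.01 TPM in library 1, from 6 counts in library 2 and 1 count in library 1, and was not tested.

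Of 12 basement membrane partners of laminin, 6 passed as higher and 1 as lower, and the median log2 ratio was 0.83. With the GC trend removed 1 passed as higher and 5 as lower, with a median of -0.49. Sparc, a collagen-binding matrix protein, had 237 TPM in library 2 and 70.8 TPM in library 1, and the network collagen Col4a1 had 68.2 TPM in library 2 and 5.80 TPM in library 1. Nid1, the nidogen that links laminin to those collagens, had 24.1 TPM in library 2 and 21.4 TPM in library 1, did not pass on scaled counts and passed as lower at -1.36 with the trend removed. Hspg2, the proteoglycan perlecan, had 49.8 TPM in library 2 and 0.07 TPM in library 1, where it had 7 counts, and was the 1 that passed as higher with the trend removed, at 3.80. The direction of the list's median thus turned with the removal of the trend, while the members' median fell from 0.98 to 0.23 without turning. Within the members, the median of the beta integrins turned from 1.44 to -0.21. Those of the alpha integrins, from 0.88 to 0.19, and of the laminin chains, from 1.72 to 0.52, did not turn.

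Of 5 laminin receptors outside the integrins, 3 passed as higher, 1 as lower and 1 did not pass, and with the GC trend removed 1 passed as higher. Dag1, the dystroglycan of muscle and epithelium, had 74.1 TPM in library 2 and 12.3 TPM in library 1, and Bcam, a receptor for Lama5, had 17.3 TPM in library 2 and 0.04 TPM in library 1. Of 11 matrix ligands of integrins 9 were tested, of which 3 passed as higher and none as lower, with a median log2 ratio of 0.31. With the trend removed 1 passed as higher and 4 as lower, with a median of -0.73. Col3a1 had 334 TPM in library 2 and 260.1 TPM in library 1. It did not pass on scaled counts and passed as lower at -1.23 with the trend removed. Fn1, the ligand of Itga5, had 153 TPM in library 2 and 23.0 TPM in library 1. It passed as higher before and after the trend was removed, at log2 ratios of 1.98 and 1.29. Col1a2 and Col1a1 passed as lower with the trend removed, at -2.3 and -2.7.

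Of 6 cell surface ligands, 3 passed as higher, 1 as lower and 2 did not pass, and with the trend removed 1 passed in each direction. Cdh1, the E-cadherin that Itgae binds, had 424 TPM in library 2 and 195 TPM in library 1 and did not pass. F11r, a junctional adhesion molecule, had 117 TPM in library 2 and 29.7 TPM in library 1 and also did not pass. Vcam1, the ligand of Itga4 on endothelium, had 331 counts in library 2 and 502 in library 1 and passed as lower at -1.03. Madcam1, the gut ligand of Itga4 with Itgb7, had 36 counts in library 2 and 0 in library 1.

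The marker lists moved in several directions on scaled counts, where 37.0% of all genes passed as higher and 28.2% as lower. Of the epithelium markers 5 of 8 passed as higher and none as lower, and of the smooth muscle markers 6 of 7 and none. Of the endothelium markers 4 of 6 passed as higher and none as lower, of the leukocyte markers 5 of 9 and 1, of the glia and nerve markers 4 of 5 and 1, and of the fibroblast markers 2 of 5 and 2. With the GC trend removed, where 12.4% of all genes passed as higher and 11.3% as lower, 2 endothelium, 2 leukocyte, 1 glia and nerve and 1 fibroblast marker passed as higher and none of these 4 lists had one that passed as lower. Of the platelet markers 3 were tested and 1 passed in each direction, with Gp9 and Gp1ba listed at 0 in library 1. Of the skeletal muscle markers 3 were tested, and 2 passed as higher. With the trend removed 1 passed as higher in each of these 2 lists. Beside the leukocyte integrins, the markers Cd52, Ptprc and Coro1a gave log2 ratios of 0.53, -1.66 and 4.81 at 51.0, 41.1 and 58.2% GC, and Itga4 and Itgb7, which pair with each other, gave -2.25 and 4.90 at 41.3 and 58.0% GC. The leukocyte markers therefore held genes that passed in opposite directions on scaled counts, as did this pair of chains. The other leukocyte and platelet integrins that passed, Itgb2, Itgal and Itga2b, were all higher in library 2. With the GC trend removed their log2 ratios were 0.64, 0.39 and 0.28, and those of Itga4 and Itgb7 were -0.45 and 0.91. None of these chains then passed.

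Some members carry limits of their own. An exon of Itga7, Itga8, Itgav, Itga4, Itgad, Itgb4, Lama2, Lama3 and Lamc3 is overlapped by a gene on the opposite strand, and whether the counting used strand is not given in the sources used here. Reads of both genes of such a pair may have been counted together. Of the 31-base words of Itgam, 74.9% also occur in other genes, most of all in Gm49368, a gene model on the same strand. For Itga10 this share was 31.8%, most of all with Gm42957. It was 17.5% for Itgad, most of all with Itgax, and 12.7% for Itgax, most of all with Itgad. The next highest shares were 7.93% for Itgb5, 6.15% for Itga6 and 5.89% for Itga1, most of all with Gm38317, Gm29397 and Gm49395. The values of all these genes are uncertain. The shares do not measure by how much, since the words come from GENCODE M21 and the deposited values from M4.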

How the data were processed

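The authors deposited a gene table and a transcript table for each library on mm10 with GENCODE M4, per the text files beside them. Per the file headers, they hold the authors' expected counts (estimated counts of reads shared among transcripts), TPM, and a posterior mean TPM. The transcript tables also hold the deposited percent of its gene for each transcript. Which aligner, quantifier and strand setting made them is not given in the sources used here. Members were matched by Ensembl identifier, and positions, sequences and GC content came from GENCODE M21 on GRCm38. Of 175 member transcripts 173 had a sequence.

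The members and the 14 lists of related genes and markers were chosen with earlier results of these data known. Genes named from a list were up to 4 with the highest mean TPM, in that order, and the one with the largest ratio that passed. Pxn and the markers listed at 0 were chosen after their values were seen. Members with a mean of at least 5 TPM were described in both libraries, and the rest by value as well.

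Both libraries are technical replicates of 1 mouse, so SDs measure only the spread between these samples. The p-values measure counting error only, given the scaled library sizes. Depths are in the report, and intervals cover counting error only. Expected counts were rounded. TMM sizes came from edgeR 4.0.16 in R 4.3.3, with library 2 over library 1 at 1.35. With 1 library on each side edgeR's quasi-likelihood test has no residual degrees of freedom, so exact binomial tests were used (scipy 1.17.1, Python 3.11.15), with Benjamini-Hochberg adjustment over 15711 genes. Log2 ratios used a prior count of 0.5. Trends were lowess fits with a fraction of 0.2 (statsmodels 0.14.6). The procedure was tested on simulated data. Alternatives were DESeq2 1.42.0 size factors, other filters, nuclear protein-coding genes only, a prior count of 2, GC content and length trends, the log2 ratio of TPM with 0.1 added, posterior mean TPM, rescaled TPM and each library alone. Fixed-length TPM and the GC content of the longest coding transcript were added after seeing the data.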

Additional observations from a re-analysis of the deposited data

How the results depend on the processing

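With the GC trend removed, 1946 genes passed as higher in library 2 and 1783 as lower, against 5814 and 4428, and 9 members as higher and 0 as lower, against 16 and 7. With the GC and length trends removed together the counts were 1751 and 1824 genes and 10 and 0 members, and with the GC content of the longest coding transcript, added after seeing the data, 8 and 1 members. The members' median log2 ratio of 0.98 became 0.23 with the GC trend removed, 0.39 with both trends removed and 1.85 on TPM with 0.1 added, against 1.18 for all genes on that scale; over all genes it ran from -0.23 with the length trend removed to 0.24 with no filter. Of members that passed before or after, ratios changed sign for Itga1 (0.15 with GC removed, 0.39 with both), Itga2 (1.02, 1.16), Itgb5 (-0.23, -0.21) and Lamc3 (-0.99, -0.66). Passing in neither, Itga6 (0.19, 0.25), Lama2 (0.35, 0.65), Lama4 (0.23, 0.40) and Lamb1 (-0.37, -0.16) changed sign too, as did Itga9 (-0.28) and Itgb3 (-0.27) with GC removed, Itgam with both (0.16), and Itgam (0.04), Lama2 (0.56) and Lama4 (0.08) with the length trend removed. Lama3 lay at -0.05 with DESeq2 size factors and with nuclear genes only. Under these 2 settings and a prior count of 2, members that passed kept their direction, as they did under the filters where tested. With a mean of at least 50 expected counts 32 members were tested, without Itga2b, Lama1 and Lamc3, and 13 passed as higher. The cause of these shifts was not tested.

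Rescaled over nuclear protein-coding genes, the mean sum of all members was 1232 TPM, against 617. Class means became 48.2 TPM for collagen-binding, 232 for laminin-binding, 84.5 for RGD-binding and 31.2 for alpha4 and alpha9 chains, 545 for widely shared beta chains, 417 for all alpha chains, 565 for all beta chains, 982 for all integrins and 102 for laminin alpha chains. With 1 fixed length per gene they were 33.1 TPM for collagen-binding, 20.8 for alpha4 and alpha9, 345 for widely shared beta, 363 for all beta chains and 620.3 for all integrins. By posterior mean TPM the leading transcript's mean share was 79.4% in Itga9, 99.4% in Itgb1, 37.7% in Itgb4 and 69.5% in Itgb6. Leaving out a library leaves no comparison, so that was not run for the ratios. No paired analysis was possible because there is 1 group. Depth limits Itga2b, Itgb7, Lamc3, Itga11, Lama1 and Itgad, with 1 to 8 counts in library 1.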
